A study of Homo sapiens with 8 samples.

Results

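Ribosome footprints on the human aminoacyl-tRNA synthetases were examined in G401, a cell line from a kidney rhabdoid tumor. It has lost SMARCB1, a core subunit of the SWI/SNF chromatin remodelling complexes. The enzymes were taken by gene symbol from a fixed list of 36 genes. All 36 were found among the 20719 gene IDs counted, 20 for cytosolic and 16 for mitochondrial enzymes, and all 36 were among the 11097 genes that passed the filter on low counts.

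An aminoacyl-tRNA synthetase joins an amino acid to the tRNA that carries it to the ribosome, so each amino acid needs its own enzyme. Cytosolic and mitochondrial translation use separate sets of these enzymes, both encoded in the nucleus. For most amino acids the sets come from different genes, with symbols that mostly end in 1 and in 2. GARS1 and KARS1 are exceptions, each of which makes the enzyme of both compartments. EPRS1 charges glutamyl- and prolyl-tRNA from the same polypeptide, and FARSA and FARSB are the alpha and beta subunits of the cytosolic phenylalanyl enzyme. Several cytosolic enzymes form the multisynthetase complex. The transcription factor ATF4, the effector of the integrated stress response, is known to raise transcription of many cytosolic synthetase genes.

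The cells carried a doxycycline-inducible transgene, either SMARCB1 or GFP, and all were otherwise G401. Each line was treated for 12 h with 0.1 μg/ml doxycycline or with DMSO, and plates of a condition were pooled before ribosomes were captured. This gave 4 groups of 2 libraries, named SMARCB1 Dox, SMARCB1 DMSO, GFP Dox and GFP DMSO. Nothing in the sources used here says whether a line was 1 clone or whether replicates were separate cultures, so the p-values measure the spread between these libraries, which may be technical.

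The libraries held between 5924443 and 14000039 footprints on coding sequences. SMARCB1 itself was counted 2553 and 1750 times in SMARCB1 Dox and never in the remaining 6 libraries, where a count of 0 allows up to 3. GFP Dox replicate 1 stood apart, with 56.4% of its reads mapping to several places against 25.6 to 39.7% in the others, and with the lowest correlation to its own replicate of any group (r = 0.950 over log2 levels across genes). Where leaving out this library moved the fitted log2 value of a named member, or the median of a class, by over 1.5 times, the value without it is also given. The matched RNA-seq was not analysed here, so the values are ribosome occupancy, in which more mRNA and more ribosomes per mRNA cannot be told apart.

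Synthetase promoters were inspected for the letters TGATGNAA on both strands, the form of the composite C/EBP and ATF element that ATF4 is known to bind. RefSeq windows on GRCh38.p14, from 250 bases before to 50 bases after each gene start, were found for 30 of the 36 genes. The letters were present in 7 of 16 cytosolic and 1 of 14 mitochondrial genes with a window, and in 3.62% of all 35116 windows. A gene was counted when any of its windows matched, with 21 windows for the 16 genes and 18 for the 14. The counts by gene and the share by window are thus not on the same footing. The matches are shown because the cytosolic genes held more of them than the mitochondrial genes, though 9 of the 16 cytosolic genes had none. Each is printed 5′ to 3′ on the strand of its gene with the match in capitals, and a match on the opposite strand appears as the reverse complement of those letters.
TARS1, chr5:33440959-33440982, plus strand: cctttcgaTTGCATCAgctggtcc
GARS1, chr7:30594837-30594860, plus strand: cgcggcgaTTTCATCAtgctccga
IARS1, chr9:92293695-92293718, minus strand: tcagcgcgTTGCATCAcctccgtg
CARS1, chr11:3057410-3057433, minus strand: ggcggcggTTGCATCAgattctag
MARS1, chr12:57488056-57488079, plus strand: ggttccggTTGCATCAgcgaggga
AARS1, chr16:70289678-70289701, minus strand: tctcgcagTTGCATCAgccaagtt
NARS1, chr18:57621807-57621830, minus strand: acgctctcTGATGCAAcgccggaa
YARS2, chr12:32756079-32756102, minus strand: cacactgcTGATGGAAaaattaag

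HARS1 and HARS2, the cytosolic and mitochondrial histidyl enzymes, are neighbours on chromosome 5 that are read in opposite directions from starts 85 bases apart. The interval between the RefSeq starts is shown because a single stretch of DNA lies upstream of both of them. It is printed on the plus strand, the strand of HARS2, with the letters CCGGAAGT, a core of ETS family binding sites, in capitals on either strand.
HARS1 to HARS2, chr5:140691371-140691454, plus strand: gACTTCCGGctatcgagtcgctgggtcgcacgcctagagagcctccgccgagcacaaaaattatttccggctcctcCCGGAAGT
The interval held 2 such matches, the first for the minus strand and the second for the plus strand. CCGGAAGT was found in 5 of 16 cytosolic and 3 of 14 mitochondrial genes with a window, and in 4.14% of all windows, again counts by gene beside a share by window. A match is a description of the letters and not evidence of binding, and the 2 motifs could share at most 1 base at their ends.

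Levels were compared between genes per length, as CPM per kb of coding sequence. CPM is the footprint count scaled to a common library size, here after TMM scaling, which corrects each library for its composition. NARS1, the cytosolic asparaginyl enzyme, had the highest level, with a mean of 582 CPM per kb over 8 libraries and a range of 479 to 712. Its lowest library lay above the highest library of any other synthetase. SARS1 followed with a mean of 336, GARS1 with 320 and TARS1 with 282 CPM per kb, for serine, glycine and threonine. The ranges of these 3 overlapped (261 to 451, 264 to 367 and 230 to 377), and with the longest annotated coding sequence as the length GARS1 came before SARS1, at 351 CPM per kb. YARS1, the tyrosyl enzyme, was the fifth at 211 CPM per kb, with a range of 179 to 248.

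At the lower end of the cytosolic enzymes, the phenylalanyl subunits FARSA and FARSB had means of 61.4 and 44.02 CPM per kb. The cysteinyl enzyme CARS1 had 31.8 and the valyl enzyme VARS1 had 21.9 CPM per kb. TARS3, a second cytosolic threonyl enzyme, was the lowest at 10.9 CPM per kb. The median over all genes tested was 17.2 CPM per kb, and 19 of the 20 cytosolic enzymes had a mean above it, with 7 above the 90th percentile.

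The mitochondrial enzymes were lower as a class. IARS2, the mitochondrial isoleucyl enzyme, had a mean of 132 CPM per kb (range 96.9 to 153) and by itself made up 36.7 to 44.6% of mitochondrial synthetase CPM. LARS2 came next with 36.7, TARS2 with 34.1, CARS2 with 31.8 and HARS2 with 30.6 CPM per kb, and the ranges of these 4 overlapped. The lowest were AARS2 at 9.85, MARS2 at 8.36, NARS2 at 7.47, PARS2 at 5.56 and SARS2 at 1.24 CPM per kb. Of the 16, 7 had a mean above the median of all genes tested.

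SARS2, the mitochondrial seryl enzyme, had between 1 and 45 counts per library. In the annotation, 1287 of its 1709 coding bases (75.3%) also belong to ENSG00000269547, a gene model on the same strand. The counting mode used for these files leaves a read that fits 2 genes unassigned, and ENSG00000269547 itself had 0 counts, so the value of SARS2 is a lower limit of its level. AARS2 shared 89 coding bases with genes on the opposite strand, and no other member shared any. For 11 members the annotation names pseudogenes, whose near-identical copies could take reads or leave them as multimapping.

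**Figure D1:**
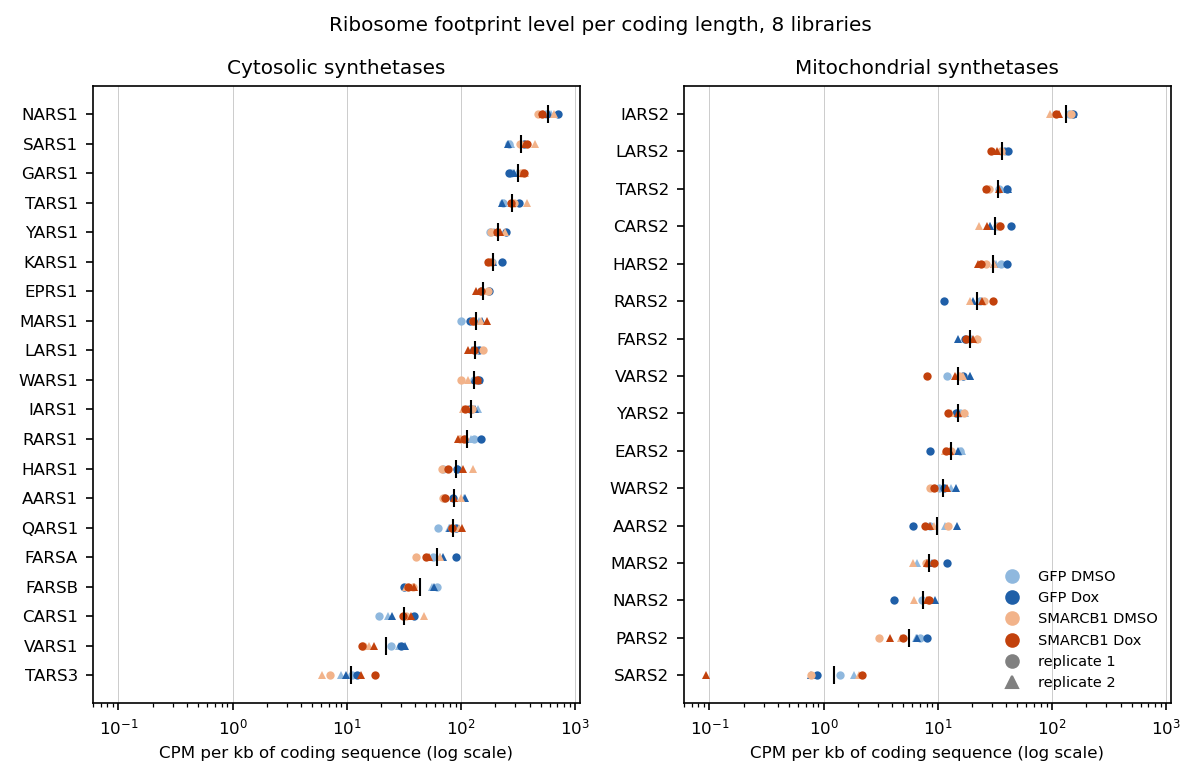
Footprint level of each synthetase in CPM per kb of coding sequence (log axis), cytosolic on the left and mitochondrial on the right, ordered by mean. Colours are the 4 groups, circles and triangles are replicates 1 and 2, and black ticks are means over 8 libraries. NARS1 (479 to 712) lies above all others, and IARS2 (96.9 to 153) is the highest mitochondrial enzyme, within the range of the cytosolic ones.

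The 7 multisynthetase complex enzymes among the 36 genes, which need not be all of the complex, had more even levels than the other cytosolic enzymes. In CPM per kb they were KARS1 at 190.0, EPRS1 at 155, MARS1 at 136, LARS1 at 134, IARS1 at 122, RARS1 at 114 and QARS1 at 85.0. Highest and lowest differed 2.23-fold among these 7 and 53.6-fold among the 13 cytosolic genes outside the complex, which are also more in number. Median coding GC content was 44.3% in these 7, 51.3% in the other cytosolic genes and 53.9% in the mitochondrial genes, against 52.1% over all genes tested. The part of base composition and length in these levels was not tested.

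Summed over the class, cytosolic enzymes had 6637 to 8002 CPM per library and mitochondrial enzymes 803 to 1065. The cytosolic sum includes GARS1 and KARS1, which serve both compartments, at means of 785 and 373 CPM over 8 libraries. The mitochondrial sum had a mean of 954 CPM, so the ratios below compare gene lists and not the 2 compartments. The cytosolic sum was 6.62 and 7.13 times the mitochondrial sum in GFP DMSO, and 7.59 and 6.69 times in GFP Dox. It was 7.04 and 9.97 times in SMARCB1 DMSO, and 8.52 and 8.39 times in SMARCB1 Dox. The SMARCB1 Dox libraries lay above all 4 GFP libraries, while SMARCB1 DMSO replicate 1 lay among them. In TMM-scaled CPM, all synthetases together came to 0.764 to 0.899% of the common library size. Because of the scaling, this percentage is not their share of the footprints counted in a library.

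For 13 amino acids the members hold 1 mitochondrial gene and a cytosolic gene of the same name ending in 1, and the ratio of their levels per length differed widely. EPRS1, which serves 2 amino acids, and the subunits FARSA and FARSB were not paired with EARS2, PARS2 and FARS2. The cytosolic enzyme was higher in all 8 libraries for 10 of the 13. Mean ratios were 84.7 for asparagine, 17.1 for methionine, 14.4 for tyrosine, 12.0 for tryptophan, 9.36 for alanine, 8.64 for threonine (TARS1 over TARS2), 5.72 for arginine, 3.68 for leucine and 3.09 for histidine. GFP Dox replicate 1 was the highest library for asparagine (171 against 58.7 to 107 in the others). It was also the highest for alanine (14.0 against 5.71 to 10.7) and arginine (13.2 against 3.53 to 5.55), which raised these means. The ratio for serine, 152 to 3935, is not interpreted because SARS2 is undercounted. For valine the cytosolic enzyme was higher in 6 libraries, with a mean ratio of 1.47. For cysteine it was higher in 2 libraries (mean ratio 1.05, range 0.587 to 2.07) and for isoleucine in 3 (mean ratio 0.934, range 0.789 to 1.07). The isoleucyl enzymes of the 2 compartments were thus at similar levels, while the cysteine ratio varied between libraries.

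**Figure D2:**
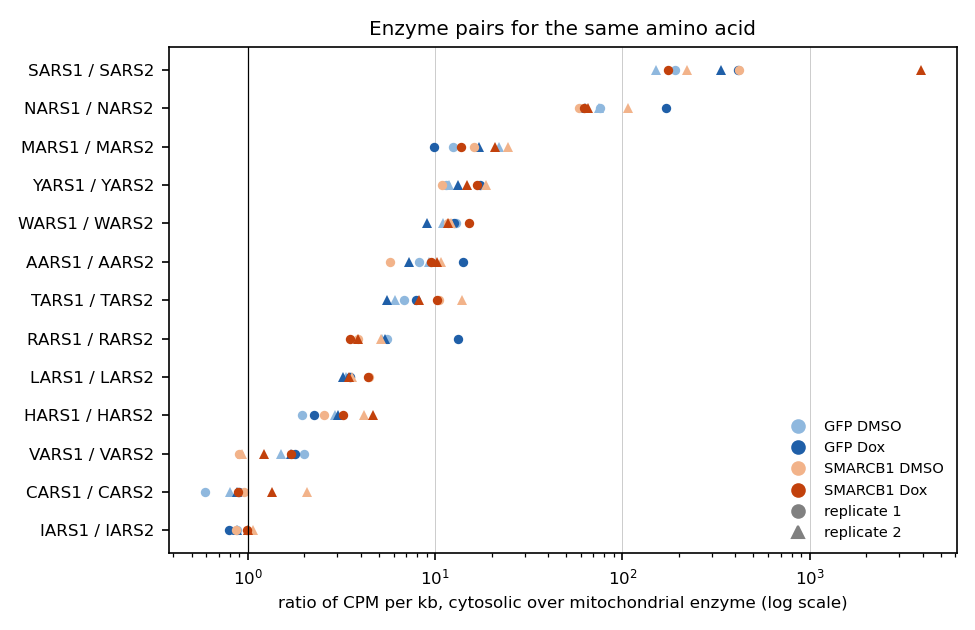
Ratio of CPM per kb of the cytosolic over the mitochondrial enzyme for 13 amino acids (log axis), with a point for each library, coloured by group, and a line at a ratio of 1. VARS1 over VARS2, CARS1 over CARS2 and IARS1 over IARS2 lie around the line, and NARS1 over NARS2 lies between 58.7 and 171.

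The HARS1 to HARS2 ratio, for the pair with the shared upstream interval printed above, was 1.94 and 2.93 in GFP DMSO and 2.25 and 3.02 in GFP Dox. It was 2.55 and 4.16 in SMARCB1 DMSO and 3.22 and 4.66 in SMARCB1 Dox. The ranges of the groups overlapped, except that both SMARCB1 Dox values were above all 4 of the GFP line. FARSA and FARSB, which form a complex in equal numbers, had a ratio per length of 0.935 to 1.99 in 7 libraries and 2.86 in GFP Dox replicate 1.

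Induction of SMARCB1 was examined first, as the comparison the study was made for. At 12 h, none of the 36 synthetases was called by edgeR's quasi-likelihood test (adjusted p below 0.05), in which 0.018% of all genes tested were called. At an unadjusted p below 0.05 there was 1 (TARS3), against 4.97% of all genes. DESeq2 called TARS3 and 0.324% of all genes. Median log2 fold changes were −0.03 for the cytosolic and −0.05 for the mitochondrial enzymes, with −0.02 over all genes tested. For 30 of the 36 the 95% interval of the change lay within 2-fold either way, as it did for 54.7% of all genes. The SMARCB1 Dox and SMARCB1 DMSO libraries did not overlap for 11 synthetases, 3 higher and 8 lower, where 35.6% of all genes did not overlap.

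TARS3 had 17.7 and 14.9 CPM in SMARCB1 DMSO and 43.7 and 33.0 CPM in SMARCB1 Dox, on 106 to 522 counts per library. It had 27.6 and 22.1 CPM in GFP DMSO and 30.4 and 24.4 CPM in GFP Dox. The SMARCB1 DMSO libraries were thus the lowest of the 8 and the SMARCB1 Dox libraries the highest, with the GFP libraries between them. The log2 fold change with SMARCB1 was 1.24 (SE 0.29), or 2.37-fold with a 95% interval of 1.55 to 3.62, with an adjusted p of 0.287 by edgeR's quasi-likelihood test and 0.0334 by DESeq2. Over all alternatives the adjusted p ran from 0.0334 to 1, and with any 1 library left out the log2 fold change was 1.02 to 1.43.

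TARS1, the main cytosolic threonyl enzyme and the nearest relative of TARS3, was lower on average with SMARCB1 and was not called. It had 683 and 879 CPM in SMARCB1 DMSO and 638 and 658 CPM in SMARCB1 Dox, a log2 fold change of −0.27 (SE 0.25). Per length, TARS1 was at 40.8 and 62.3 times the level of TARS3 in SMARCB1 DMSO and at 15.4 and 21.1 times in SMARCB1 Dox. In the 4 GFP libraries the ratio was 21.0 to 26.9, which separates the SMARCB1 DMSO libraries from the other 6.

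The other members with the smallest p in this comparison stayed under the threshold. VARS2, the mitochondrial valyl enzyme, had 48.7 and 53.4 CPM without and 25.6 and 45.0 CPM with SMARCB1 (log2 −0.54, SE 0.30). The low value of SMARCB1 Dox replicate 1 set most of this difference, which was −0.18 without that library. WARS1, the cytosolic tryptophanyl enzyme, had 174 and 199 CPM without and 241 and 244 CPM with SMARCB1 (log2 0.38, SE 0.22), and its GFP libraries, at 225 to 248 CPM, were at the level of the induced ones. HARS2 had 44.7 and 51.7 CPM without and 40.2 and 37.6 CPM with SMARCB1 (log2 −0.31, SE 0.24). AARS2, the mitochondrial alanyl enzyme, had 36.03 and 27.5 CPM without and 22.8 and 25.2 CPM with SMARCB1 (log2 −0.40, SE 0.36).

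Doxycycline with GFP induction served as the control for the drug and for a transgene. Again none of the 36 was called by edgeR's quasi-likelihood test or by DESeq2, where each called 0% of all genes. At an unadjusted p below 0.05 there was 1, CARS1, against 2.16% of all genes. The median log2 fold change of the cytosolic enzymes was 0.15, but 0.007 without GFP Dox replicate 1. It was 0.07 for the mitochondrial enzymes, but −0.008 without that library, and 0.02 over all genes tested. For 31 of the 36 the 95% interval lay within 2-fold either way, as for 57.7% of all genes, and the groups did not overlap for 9 synthetases that were higher and 5 that were lower with doxycycline, against 26.3% of all genes.

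The members with the smallest p in the GFP line mostly followed GFP Dox replicate 1. CARS1 had 50.2 and 60.5 CPM in GFP DMSO and 102 and 65.1 CPM in GFP Dox, and its log2 fold change of 0.59 (SE 0.28) was 0.23 without that library. RARS2, the mitochondrial arginyl enzyme, had 52.2 and 53.0 CPM in GFP DMSO and 25.3 and 45.7 CPM in GFP Dox, a log2 fold change of −0.56 (SE 0.29) that was −0.20 without it. FARSA, at 104 and 119 CPM in GFP DMSO and 164 and 126 CPM in GFP Dox, had a log2 fold change of 0.38 (SE 0.26), which was 0.17 without it. FARSB, at 109 and 98.7 CPM in GFP DMSO and 56.1 and 104 CPM in GFP Dox, had one of −0.38 (SE 0.28), which was −0.005 without it, so that the subunits of the same enzyme went apart in replicate 1 and not in replicate 2.

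Among low mitochondrial members, EARS2, the glutamyl enzyme, had 32.2 and 33.3 CPM in GFP DMSO and 17.7 and 30.8 CPM in GFP Dox (log2 −0.43, SE 0.29). MARS2, the methionyl enzyme, had 14.5 and 11.6 CPM in GFP DMSO and 21.7 and 15.8 CPM in GFP Dox (log2 0.52, SE 0.32). In both, replicate 1 was the GFP Dox library farther from the DMSO libraries, and without it the log2 values were −0.09 for EARS2 and 0.28 for MARS2.

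**Figure D3:**
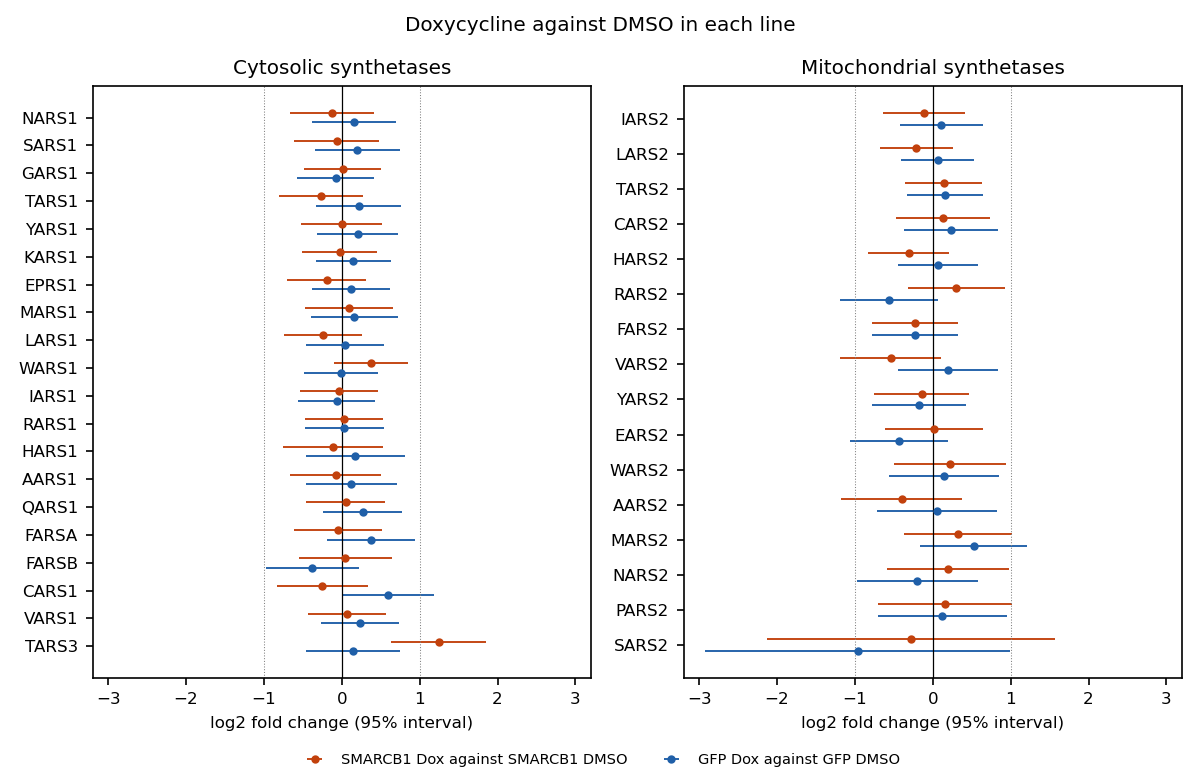
Log2 fold change with doxycycline for each synthetase, the SMARCB1 line beside the GFP line, with 95% intervals from edgeR's quasi-likelihood fit and dotted lines at 2-fold. TARS3 in the SMARCB1 line (1.24, interval 0.63 to 1.86) lies farthest to the right among cytosolic enzymes, and SARS2, on few counts, has the widest intervals.

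Whether a synthetase responded differently to doxycycline in the 2 lines was tested with an interaction term. No member was called by edgeR's quasi-likelihood test or by DESeq2, which called 0% and 0.00901% of all genes. At an unadjusted p below 0.05 there were 2 members, TARS3 and CARS1, against 3.99% of all genes. The log2 difference, SMARCB1 line minus GFP line, was 1.10 (SE 0.40) for TARS3 and −0.84 (SE 0.39) for CARS1, each at an adjusted p of 0.981. It was 0.87 (SE 0.41) for RARS2, −0.74 (SE 0.43) for VARS2, −0.48 (SE 0.36) for TARS1 and 0.39 (SE 0.31) for WARS1. Without GFP Dox replicate 1 the value was −0.48 for CARS1, 0.51 for RARS2 and −0.22 for TARS1. For VARS2 it was −1.19 to −0.38 with any 1 library left out. Intervals were wide here, and only 15 of the 36 lay within 2-fold either way (21.4% of all genes).

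The lines also differed from each other without induction. With DMSO, edgeR's quasi-likelihood test called 5.29% of all genes and none of the 36 synthetases, with 4 members at an unadjusted p below 0.05 against 13.9% of all genes. DESeq2 called 2 members, VARS1 and CARS1, and 6.7% of all genes. The median log2 difference, SMARCB1 line minus GFP line, was 0.04 for the cytosolic and −0.13 for the mitochondrial enzymes, with 0.02 over all genes tested. Of the mitochondrial enzymes 13 of 16 had a negative difference. The mitochondrial median was −0.30 without SMARCB1 DMSO replicate 1 and 0.007 without replicate 2. For 26 of the 36 the 95% interval lay within 2-fold either way (48.9% of all genes), and the groups did not overlap for 7 members that were higher and 12 that were lower (44.8% of all genes).

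CARS1 had 85.7 and 123 CPM in SMARCB1 DMSO against 50.2 and 60.5 CPM in GFP DMSO, a log2 difference of 0.92 (SE 0.28) with an adjusted p of 0.0792 by edgeR's quasi-likelihood test and 0.0416 by DESeq2. The range of its adjusted p over all alternatives was 0.0206 to 0.589. SARS1, at 526 and 725 against 426 and 447 CPM, and TARS1, at 683 and 879 against 548 and 562 CPM, had differences of 0.52 (SE 0.26) and 0.49 (SE 0.25) that did not pass. FARSB had 67.7 and 58.0 CPM in SMARCB1 DMSO against 109 and 98.7 CPM in GFP DMSO (log2 −0.73, SE 0.28, adjusted p = 0.206 in the same test). TARS3 had a difference of −0.61 (SE 0.28) between the DMSO groups, from the values given above.

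With doxycycline, edgeR's quasi-likelihood test called 6.55% of all genes between the lines and 1 of the 36 synthetases, VARS1. DESeq2 called the same member and 8.75% of all genes. At an unadjusted p below 0.05 there were 5 members against 18.7% of all genes. The median log2 difference was −0.10 (−0.06 without GFP Dox replicate 1) for the cytosolic and −0.29 for the mitochondrial enzymes, with −0.01 over all genes tested, and 11 of 16 mitochondrial enzymes had a negative difference. VARS1 also passed the stricter call with a change above 2-fold, as 6.08% of all genes did. For 25 of the 36 the 95% interval lay within 2-fold either way (42.7% of all genes), and the groups did not overlap for 5 members that were higher and 13 that were lower (46.1% of all genes). With scaling by library size alone, the median of all genes moved to 0.11, that of the cytosolic enzymes to 0.04 and that of the mitochondrial enzymes to −0.16.

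VARS1, the cytosolic valyl enzyme, was the only synthetase that edgeR's quasi-likelihood test called in any of the 5 comparisons. It had 52.0 and 65.3 CPM in SMARCB1 Dox and 52.2 and 59.4 CPM in SMARCB1 DMSO. In the GFP line it had 112 and 123 CPM with doxycycline and 91.9 and 109 CPM with DMSO, so that all 4 libraries of the SMARCB1 line lay below all 4 of the GFP line. The log2 difference with doxycycline was −1.01 (SE 0.24), or 2.01-fold lower, with an adjusted p of 0.0171 by edgeR's quasi-likelihood test. With DMSO it was −0.85 (SE 0.23), or 1.80-fold lower, at an adjusted p of 0.0522. The change of VARS1 with doxycycline within either line was not called.

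The call on VARS1 was lost under 4 alternatives. The adjusted p was 0.0529 with library size alone, 0.0509 with only the groups compared in the fit, 0.272 without the first and 0.0755 without the second SMARCB1 Dox replicate, and over all alternatives it ran from 0.00201 to 0.272. The log2 difference with any 1 library left out was −1.18 to −0.85. In the DMSO comparison the adjusted p over all alternatives was 0.0147 to 0.497.

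The next members in the comparison with doxycycline did not pass. HARS2 had 40.2 and 37.6 CPM in SMARCB1 Dox against 68.2 and 52.5 CPM in GFP Dox (log2 −0.63, SE 0.24, adjusted p = 0.163 in edgeR's quasi-likelihood test). FARSA had 89.8 and 95.4 against 164 and 126 CPM (log2 −0.65, SE 0.27), VARS2 25.6 and 45.0 against 52.8 and 61.2 CPM (log2 −0.70, SE 0.31). With any 1 library left out the difference of VARS2 was −1.15 to −0.34. TARS2, the mitochondrial threonyl enzyme, had 57.6 and 73.9 against 87.7 and 89.8 CPM (log2 −0.44, SE 0.23). RARS2 was higher in the SMARCB1 line, at 67.6 and 54.2 against 25.3 and 45.7 CPM (log2 0.78, SE 0.29). The difference of RARS2 was 0.42 without GFP Dox replicate 1. It was 1.27 without GFP Dox replicate 2, a fit in which replicate 1, the library that stood apart, was the only one of GFP Dox.

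**Figure D4:**
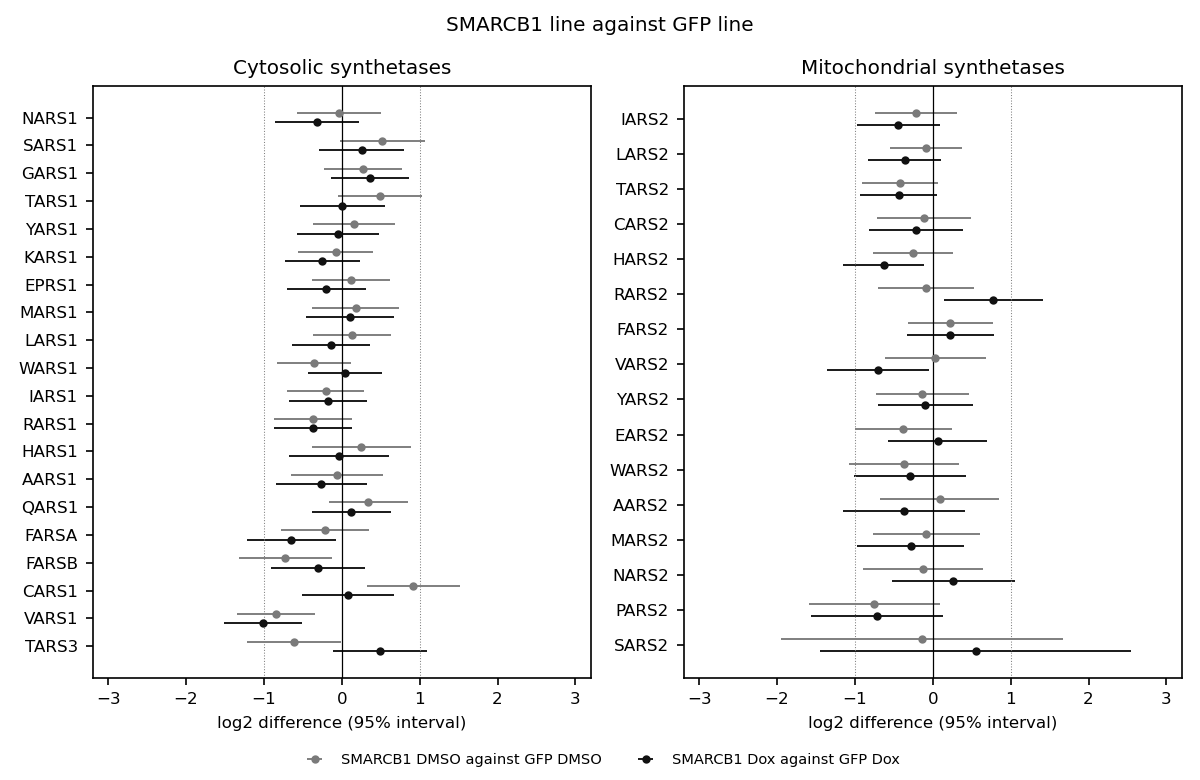
Log2 difference of the SMARCB1 line from the GFP line for each synthetase, with DMSO in grey and with doxycycline in black, with 95% intervals from edgeR's quasi-likelihood fit and dotted lines at 2-fold. VARS1 lies to the left in both (−0.85 and −1.01), and for CARS1 (0.92 with DMSO) and TARS3 (−0.61 with DMSO) the points of the treatments lie apart, a difference that did not pass its own test.

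Across both treatments, 8 synthetases had all 4 libraries of the SMARCB1 line beyond all 4 of the GFP line, where 17.6% of all genes did. GARS1, the glycyl enzyme of both compartments, was the 1 that was higher, at 833 to 902 CPM against 650 to 768 CPM in the GFP line. KARS1, the lysyl enzyme of both compartments, was lower at 338 to 364 against 372 to 450 CPM. The others that were lower were RARS1, VARS1, HARS2, LARS2, PARS2 and TARS2, so that 4 of the 7 lower genes were mitochondrial. Of all 36 members 16 are mitochondrial, and the split into higher and lower was not counted over all genes. With scaling by library size alone, TARS2 overlapped while SARS1 and TARS1 joined GARS1 among the higher genes.

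The summed mitochondrial level was lower in the SMARCB1 line as well, at 803 to 997 CPM against 1002 to 1065 CPM in the GFP line, a gap that is narrow at SMARCB1 DMSO replicate 1. With scaling by library size alone the lines overlapped, at 752 to 1009 against 913 to 1120 CPM. No test was made on these sums.

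**Figure D5:**
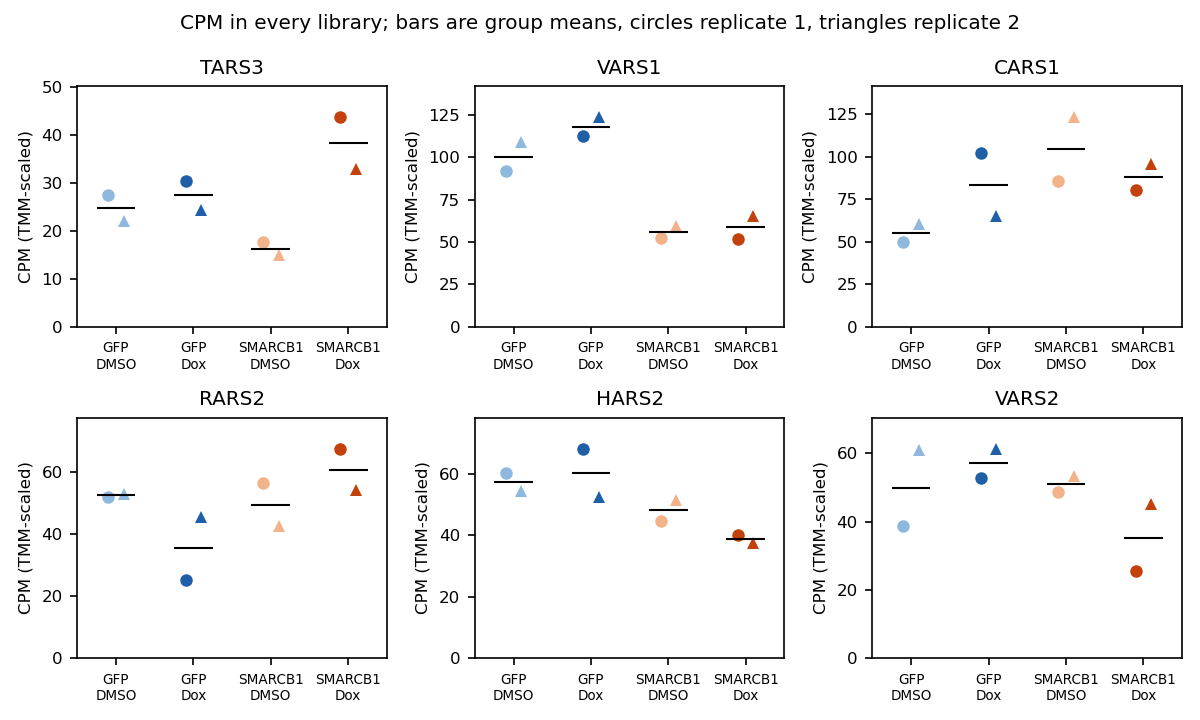
CPM in each library for 6 members, with bars at group means, circles for replicate 1 and triangles for replicate 2. TARS3 is lowest in SMARCB1 DMSO (17.7 and 14.9) and highest in SMARCB1 Dox (43.7 and 33.0), VARS1 separates the lines in every library, and RARS2 is lowest in GFP Dox replicate 1 (25.3).

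Cytosolic genes with the TGATGNAA letters printed above were also set beside those without them. LARS1, TARS3, VARS1 and YARS1 had no promoter window and are in neither set. Between the lines with DMSO, 4 of the 7 genes with a match and 4 of the 9 without had a positive difference, with medians of 0.18 and −0.08 on the log2 scale. With SMARCB1 induction, 2 of 7 and 4 of 9 had a positive change, with medians of −0.08 and −0.03. The medians of the sets lay within the range of each other's members in both comparisons, and no test was made on them.

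Other genes of tRNA charging were read from lists beside the members. The scaffold proteins of the multisynthetase complex are AIMP1, AIMP2 and EEF1E1. The 7 other charging genes were the mitochondrial glutaminyl-tRNA amidotransferase subunits GATB, GATC and QRSL1, the formyltransferase MTFMT, and AARSD1, DTD1 and DTD2, which clear mischarged tRNAs. None of these 10 was called in any of the 5 comparisons by edgeR's quasi-likelihood test or DESeq2. An unadjusted p below 0.05 was reached by DTD1 between the lines with DMSO (log2 1.04, SE 0.34) and by AARSD1 between the lines with doxycycline, the latter at no more than 1.67 CPM in any library.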

How the data were processed

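Ribosome footprints were captured with the RiboLace kit from 8 G401 libraries. The authors aligned reads with STAR to hg38 and counted them with HTSeq over coding sequence (GENCODE 42, intersection-strict), and deposited raw counts per gene, versions of both tools not being given in the sources used here. Symbols, coding lengths and coordinates of genes came from GENCODE 44, and promoter sequence from RefSeq (GRCh38.p14).

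The counts were filtered with filterByExpr, scaled by TMM and fitted with edgeR 4.0.16 (R 4.3.3), by the quasi-likelihood test, with a term per group over all 8 libraries. P-values were two-sided and Benjamini-Hochberg adjusted over all 11097 genes. A call was an adjusted p below 0.05. The SE was taken from the test statistic. Sums and ratios of CPM had no test. Alternatives were DESeq2 1.42.0, other scalings, filters and sample sets, a replicate block, robust dispersion, the longest coding sequence, and leaving out each library. The scripts were tested on simulated data.

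Members and gene lists were chosen with earlier results of these data known. Some genes of the list of other charging genes are not reported here. The named members were those called in a comparison and, where fewer than 6 were, those with the smallest p up to 6, the 5 highest and 5 lowest of each class per length, and the pairs HARS1 and HARS2, TARS1 and TARS3, GARS1 and KARS1. Libraries held 5924443 to 14000039 counts, so members with few counts (SARS2, PARS2) were measured least precisely. Counting limits cover counting error only. Replicates differed by more than counting noise in every group.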

Additional observations from a re-analysis of the deposited data

How the results depend on the processing

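Most results kept their side of the threshold. No synthetase changed direction past a call under any alternative. With SMARCB1 induction, DESeq2 called 1 member (and 0.324% of all genes) and the fit with no filter on low counts called 1, TARS3 in each. The fit with no filter called 38 genes higher and 8 lower of 14323 in all. Between the lines with DMSO, DESeq2, no filter on low counts and a fit on only the groups compared each called 2 members, VARS1 and CARS1. Over all genes, in that order, they called 374 higher and 369 lower of 11097, 372 and 382 of 14323, and 386 and 392 of 10999. Between the lines with doxycycline, scaling by library size alone and a fit on only the groups compared each called 0 members. Among all genes these called 383 higher and 268 lower of 11097, and 271 and 245 of 10552. Leaving out a library there left 1 library in its group, so effect sizes are given. The log2 difference was then −1.18 to −0.85 for VARS1 and 0.42 to 1.27 for RARS2. Among these fits the call on VARS1 was lost, as given above, and a call on RARS2 was gained. With 1 library in a group such calls carry little weight, and those of the other 4 comparisons are not counted here. The cause of these changes was not tested.

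Deviations of same-numbered libraries from their group means correlated at 0.045 to 0.280 over 6 pairs of groups, so the numbers were not taken to pair the samples. With the replicate number as a block, VARS1 was called between the lines with DMSO (1 member, adjusted p = 0.0147 in edgeR's quasi-likelihood test). That fit called 376 genes higher and 377 lower of 11097 in all. The number of members called was the same as without the block in the other 4 comparisons.

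Scaling by library size alone moved the all-gene median (log2) to 0.09 with SMARCB1 induction, to −0.06 with GFP induction and to −0.05 between the lines with DMSO, and the class medians moved with it, to 0.07, 0.05 and −0.03 for the cytosolic and to 0.05, −0.004 and −0.19 for the mitochondrial enzymes. The SE was 0.22 to 0.43 on the log2 scale for the members named for their p, with 2 libraries per group, and SARS2 was limited by shared coding sequence.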

Other observations

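Of 15 target genes of ATF4 other than synthetases, 13 had a higher mean in the SMARCB1 line with DMSO and 13 with doxycycline. In edgeR's quasi-likelihood test 2 were called with DMSO (TRIB3 and VLDLR; 5.29% of all genes were) and 3 with doxycycline (these and SLC7A11; 6.55% of all genes were). TRIB3, a pseudokinase induced by ATF4, had 35.7 to 42.8 CPM in the SMARCB1 line and 7.40 to 11.1 CPM in the GFP line, a log2 difference of 2.09 (SE 0.29, adjusted p = 0.000299) with DMSO. VLDLR, a lipoprotein receptor, had 4.36 to 28.9 CPM in the SMARCB1 line and 0.592 to 2.32 CPM in the GFP line. SLC7A11, the cystine transporter, had 12.9 to 16.9 CPM in the SMARCB1 line and 3.81 to 7.25 CPM in the GFP line. DDIT4 had a log2 difference of −0.75 with DMSO and −0.96 with doxycycline, and PSAT1 of −0.07 and −0.12, none of which passed. DESeq2 called 4 genes with DMSO (TRIB3, VLDLR, PHGDH and ATF3) and 4 with doxycycline (TRIB3, VLDLR, SLC7A11 and DDIT3), where it called 6.7% and 8.75% of all genes.

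In the same 2 comparisons the median of the 20 cytosolic synthetases was 0.04 and −0.10 on the log2 scale, against 0.69 and 0.69 for the 15 ATF4 targets. With SMARCB1 induction none of the 15 was called by edgeR's quasi-likelihood test, VLDLR was the 1 at an unadjusted p below 0.05, and DESeq2 called 1, also VLDLR. With GFP induction none was called by either tool and none had an unadjusted p below 0.05.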
